A study of Homo sapiens with 12 samples.

Results

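Actins and the contractile genes that serum response factor (SRF) is known to switch on were followed through 12 RNA sequencing libraries. The group holds 10 of the 58735 genes in the deposited table: ACTA2, ACTB, ACTG1, TAGLN, MYL9, CNN1, TPM1, TPM2, VCL and SRF. They were chosen by symbol, because ACTA2 and ACTB were lower with treatment in the libraries labelled KGN. The change with treatment in those libraries is therefore given for these genes as a description and without a test, while the COV434 libraries and the difference between the lines took no part in the choice.

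KGN and COV434 are established human cell lines, both labelled as granulosa cell tumor and as wild-type genotype. The labels name no engineered change of a gene in either. Each line was sequenced untreated and after 72 h with 77-39, described in the study as an inhibitor of the mitochondrial deacetylase SIRT3, with 3 libraries in each of the 4 groups. The labels give the dose as 10 μm/ml, a unit from which a molar or a mass concentration cannot be told, and they name no vehicle for the controls. Each line stands for 1 culture model of tumor cells, and the labels do not say that the 3 libraries of a group came from separate cultures. The p-values therefore measure the spread between these libraries, which may be technical.

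The values are FPKM, fragments counted on a gene after scaling for gene length and library size. The scaling takes 1 length per gene from the deposited table, such as 12876 bases for TPM1 and 3248 bases for TPM2. Levels of different genes therefore depend on these lengths as well as on the reads. Between 15547851 and 18280415 reads lay on genes in each library. FOXL2, a granulosa cell transcription factor that KGN is known to carry in mutated form, had 1 read in the 3 untreated and 1 read in the 3 treated libraries labelled KGN, but a mean of 12.4 FPKM in the untreated and 13.5 FPKM in the treated libraries labelled COV434. SMARCA4 and SMARCA2, the chromatin remodelling ATPases that COV434 is known to lack, were at 9.22 and 5.65 FPKM in untreated libraries labelled COV434, against 2.58 FPKM and 8 reads in those labelled KGN. These 3 genes go against the line labels, so KGN and COV434 mean the libraries labelled so throughout. Whether the labels of the lines were exchanged was not tested. Pairs of replicates, compared by a chi-square of their reads in which sampling alone would give 1 per gene, came to 2.36 to 8.36 per gene in KGN and to 15.6 to 89.9 per gene in COV434.

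Actin filaments are built from actin monomers that a cell makes from several genes. ACTB and ACTG1 encode the cytoplasmic isoforms found in nearly all cells, and ACTA2 encodes the isoform of smooth muscle and of contractile stromal cells. SRF binds a short DNA element, the CArG box, in the promoters of many such genes. Its cofactors MRTFA and MRTFB, of the myocardin family, are held inactive by free actin monomers. The level of these RNAs is therefore widely used as a readout of the state of the actin cytoskeleton. In bulk RNA, fewer cells of a type and less RNA per cell cannot be told apart.

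The 10 genes and their positions in GRCh38, the build of the annotation that the table matches (GENCODE release 29), were as follows. ACTA2 (ENSG00000107796) lies on chromosome 10 from 88935074 to 88991339, ACTB (ENSG00000075624) on chromosome 7 from 5527147 to 5563784 and ACTG1 (ENSG00000184009) on chromosome 17 from 81509971 to 81523847, all on the minus strand. TAGLN (ENSG00000149591) lies on the plus strand of chromosome 11 from 117199321 to 117204782, MYL9 (ENSG00000101335) on the plus strand of chromosome 20 from 36541484 to 36551447 and CNN1 (ENSG00000130176) on the plus strand of chromosome 19 from 11538717 to 11550323. TPM1 (ENSG00000140416) lies on the plus strand of chromosome 15 from 63042632 to 63071915 and TPM2 (ENSG00000198467) on the minus strand of chromosome 9 from 35681992 to 35690121. VCL (ENSG00000035403) lies on the plus strand of chromosome 10 from 73995193 to 74121363, and SRF (ENSG00000112658) on the plus strand of chromosome 6 from 43171299 to 43181507.

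To show the element that SRF binds, the promoters of RefSeq (GRCh38.p14, 250 bases before to 50 bases after each annotated start) were searched for the CArG box, which is CC, then 6 bases that are each A or T, then GG. The pattern reads alike on both strands, so a single search covers both. It stood in 1.29% of 35116 promoters. Promoters were at hand for 7 of the 10 genes, 10 windows in all, and the box was found in 1 window each of SRF and ACTG1. A form with 1 G or C among the 6 inner bases stood in 6.94% of all promoters. Of the 7 genes, it stood in 1 window of ACTA2, 71 and 121 bases before the start at 88952773. The windows of CNN1, TPM1, TPM2 and VCL held neither form, nor did a second window each of SRF and ACTA2. The sequences below are read along the gene, with the boxes in capitals. They show the 150 bases before the start for SRF (chr6:43171119-43171268, plus strand) and for ACTA2 (chr10:88952774-88952923, minus strand), and 30 bases around the box of ACTG1 (chr17:81512874-81512903, minus strand), which begins 94 bases before the start.
SRF: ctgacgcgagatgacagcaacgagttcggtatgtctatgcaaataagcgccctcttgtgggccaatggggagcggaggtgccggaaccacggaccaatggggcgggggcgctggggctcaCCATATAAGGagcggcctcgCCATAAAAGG
ACTA2: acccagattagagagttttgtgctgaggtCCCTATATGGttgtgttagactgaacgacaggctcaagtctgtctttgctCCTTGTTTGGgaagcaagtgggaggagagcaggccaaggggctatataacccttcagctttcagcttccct
ACTG1: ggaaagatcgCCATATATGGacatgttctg
SRF holds 2 boxes within 30 bases of its start. A match of letters is a description and not a binding site.

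All 10 genes were lower with 77-39 in KGN, in every treated library below every untreated one. Over all genes tested there, 23.4% showed such a separation downward. Since the fall of ACTA2 and ACTB prompted the choice, nothing is read from that count. The log2 fold changes of the 10 genes, on the scale of log2(FPKM + 1), ran from -0.87 to -0.24 with a median of -0.45, beside a median of 0.01 over all 12671 genes tested. Together the 10 genes took 1.57% to 1.72% of the reads in untreated KGN libraries and 1.06% to 1.14% in treated ones. Most of that share was ACTB and ACTG1, which took 1.28% to 1.44% untreated and 0.853% to 0.929% treated.

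**Figure D1:**
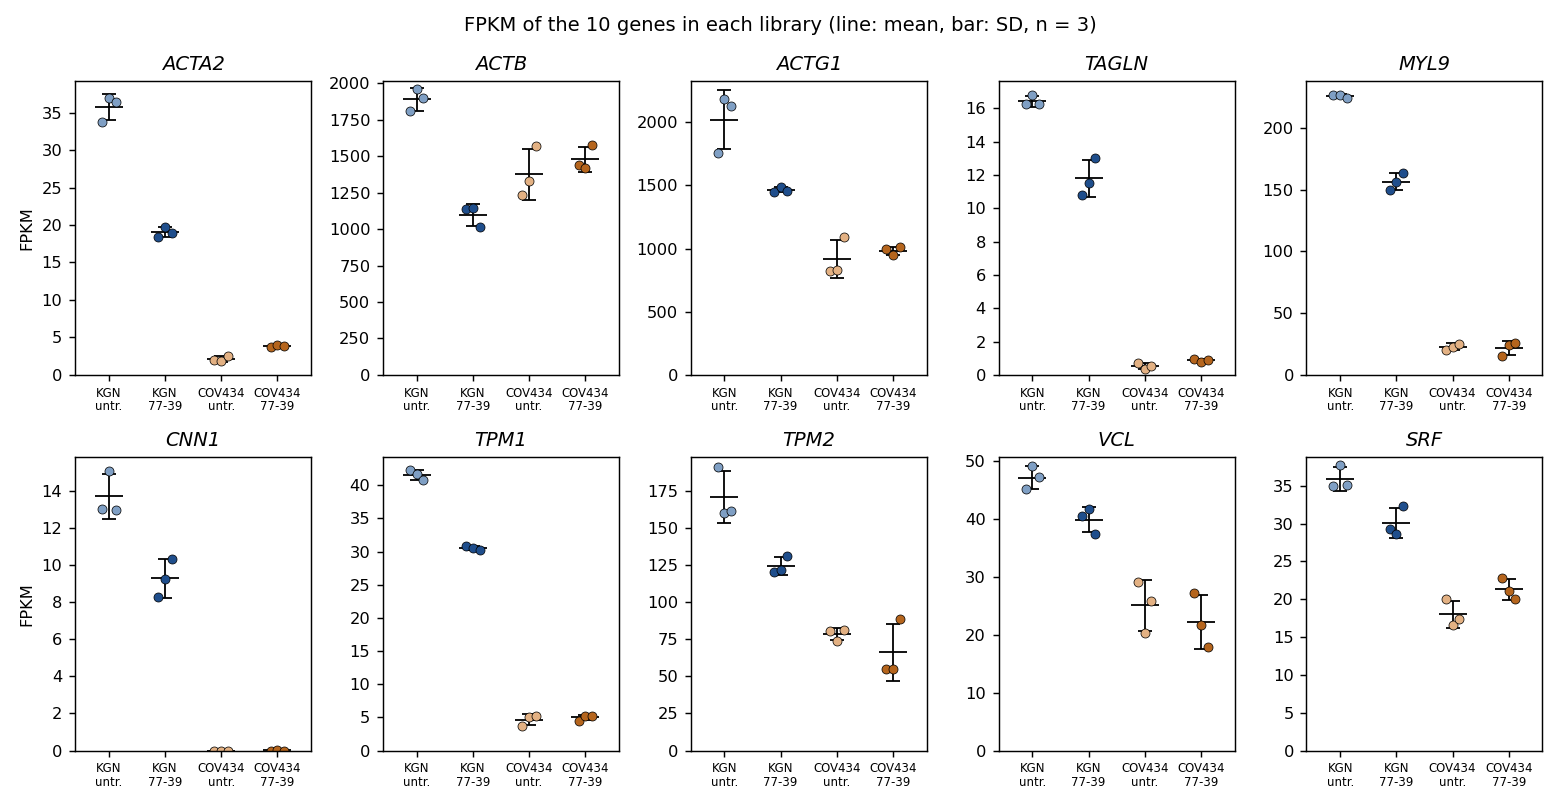
FPKM (vertical axes, each from 0 on its own scale) of the 10 genes in each library, by line and treatment. Points are libraries, the horizontal line is the mean and the bar the SD (n = 3). In KGN the treated libraries lie below the untreated ones in all 10 panels, and in COV434 the levels of CNN1, TAGLN and ACTA2 are close to the axis.

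Among the actins, ACTA2 was at 33.8, 37.0 and 36.4 FPKM in the untreated KGN libraries and at 18.5, 19.7 and 19.0 FPKM in the treated ones. The treated level was 53.4% of the untreated level, a log2 fold change of -0.87 (SE 0.05). In COV434 ACTA2 was at 2.01, 1.82 and 2.57 FPKM untreated and at 3.77, 4.01 and 3.89 FPKM treated. There all treated libraries lay above all untreated ones, the opposite order to KGN.

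The COV434 difference in ACTA2 rested on 319 reads in the untreated and 571 in the treated libraries. It came to 0.65 on the log2 scale (SE 0.15, higher in 3 of 3 treated libraries than in any untreated one). Its adjusted p in limma was 0.213, which misses the threshold of 0.05. In COV434 5 of 12060 genes passed that threshold, or 0.0415%, and 965 (8.0%) had an unadjusted p under 0.05. With the library number as a block, which pairs the COV434 libraries, the adjusted p was 0.132. When the 12 libraries of both lines were fitted together it was 0.00375. That fit uses a common spread for both lines, although replicates differed more in COV434 than in KGN. It called 488 genes in COV434 in place of 5. Over all 15 alternatives the difference stayed between 0.58 and 0.89 and the adjusted p ran from 0.00375 to 0.713.

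ACTB, the cytoplasmic actin with the higher FPKM in COV434, was at 1808, 1964 and 1896 FPKM in untreated KGN and at 1137, 1146 and 1013 FPKM in treated KGN. That was 58.2% of the untreated level (log2 fold change -0.78, SE 0.08). In COV434 the values were 1232, 1328 and 1570 FPKM untreated and 1439, 1418 and 1575 FPKM treated. The COV434 groups overlapped, with a log2 fold change of 0.11 (SE 0.19, adjusted p = 0.974).

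ACTG1, the gamma isoform, was at 1758, 2181 and 2127 FPKM in untreated and at 1448, 1488 and 1459 FPKM in treated KGN libraries. Its treated level was 72.4% of the untreated one (log2 fold change -0.46, SE 0.10). In COV434 it was at 825, 833 and 1093 FPKM untreated and at 993, 946 and 1009 FPKM treated, which overlapped (log2 fold change 0.11, SE 0.19, adjusted p = 0.972). The muscle and other isoforms of actin, ACTA1, ACTC1, ACTG2 and ACTBL2, had group means under 1 FPKM in all 4 groups and were not tested.

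Because ACTB was lower by more than ACTG1 in treated KGN, the balance of the cytoplasmic actins differed. The ratio of ACTB to ACTG1 FPKM was 0.941 ± 0.0775 (SD, n = 3) in untreated and 0.75 ± 0.0492 (SD, n = 3) in treated KGN. In COV434 it was 1.51 ± 0.0764 (SD, n = 3) untreated and 1.5 ± 0.0551 (SD, n = 3) treated. The 6 KGN libraries, at 0.694 to 1.03, all lay below the 6 COV434 libraries, at 1.44 to 1.59. The ratio was chosen after its values had been seen and is given without a test.

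**Figure D2:**
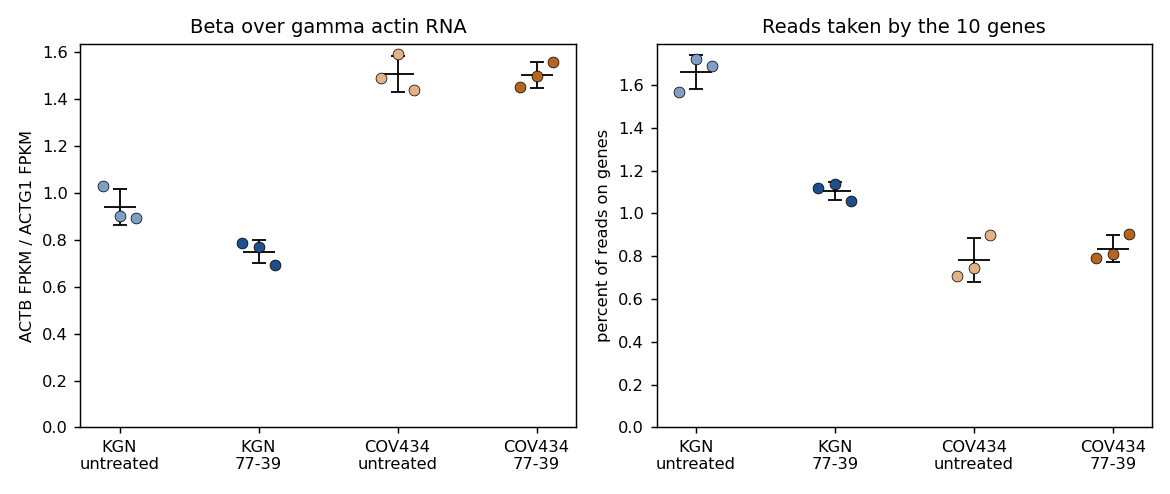
Ratio of ACTB to ACTG1 FPKM (left) and percent of the reads on genes that the 10 genes took (right) in each library, by line and treatment, with vertical axes from 0. Points are libraries, lines are means and bars are SD (n = 3). KGN lies at ratios of 0.694 to 1.03 and COV434 at 1.44 to 1.59.

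The RNAs of TAGLN, CNN1 and MYL9, whose products act with actin filaments, showed the same order of groups in KGN. TAGLN, which encodes the actin-binding protein transgelin, was at 16.3, 16.8 and 16.2 FPKM untreated and at 10.8, 11.5 and 13.0 FPKM treated (log2 fold change -0.45, SE 0.07). CNN1, which encodes the calponin of smooth muscle, was at 13.0, 15.1 and 13.0 FPKM untreated and at 8.27, 9.24 and 10.3 FPKM treated (log2 fold change -0.52, SE 0.09). MYL9, a regulatory light chain of myosin II, was at 227, 227 and 224 FPKM untreated and at 149, 156 and 163 FPKM treated (log2 fold change -0.53, SE 0.05). All 3 genes were at 67.7% to 71.7% of their untreated level.

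In COV434 TAGLN and CNN1 were at low levels. TAGLN was at 0.724, 0.345 and 0.549 FPKM untreated and at 0.955, 0.746 and 0.914 FPKM treated, so that the treated libraries lay above the untreated ones. With 106 and 168 reads in these groups, TAGLN fell below the mean of 1 FPKM required for the test. Tested in limma with a filter of 0.1 FPKM, its log2 fold change was 0.29 (SE 0.14, adjusted p = 0.759). The pseudocount of 1 shrinks values at this level, and with a pseudocount of 0.1 it was 0.64 (SE 0.33, adjusted p = 0.747). Of all 12060 genes, 6.23% showed treated libraries above all untreated ones, and among the 10 genes ACTA2 and TAGLN did.

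CNN1 had no read in 5 of the 6 COV434 libraries and 2 reads in the treated library 2. A count of 0 allows up to 0.0581 to 0.0694 FPKM in these libraries. MYL9 was at 19.9, 22.8 and 25.4 FPKM untreated and at 15.7, 24.3 and 25.7 FPKM treated in COV434 (log2 fold change -0.07, SE 0.21, adjusted p = 0.985). The lowest value belonged to the treated library 1, in which mitochondrially encoded genes took 13.5% of the reads, against 7.71% to 9.64% in the other COV434 libraries, and its part in the values was not tested.

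The tropomyosins lie along the actin filament and stabilise it. TPM1 was at 42.3, 41.8 and 40.8 FPKM in untreated and at 30.9, 30.5 and 30.2 FPKM in treated KGN libraries (log2 fold change -0.43, SE 0.04). TPM2 was at 191, 160 and 162 FPKM untreated and at 120, 122 and 131 FPKM treated (log2 fold change -0.45, SE 0.08). Both were at about the same fraction of their untreated level, 73.4% for TPM1 and 72.9% for TPM2.

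In COV434 TPM1 was at 3.74, 5.11 and 5.18 FPKM untreated and at 4.53, 5.25 and 5.21 FPKM treated (log2 fold change 0.09, SE 0.16, adjusted p = 0.974). TPM2 was at 80.9, 73.6 and 81.2 FPKM untreated and at 55.2, 55.0 and 88.5 FPKM treated (log2 fold change -0.28, SE 0.21, adjusted p = 0.848). The treated library 3 stood above the untreated libraries for TPM2 and the other treated libraries stood below them.

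VCL encodes vinculin, which links actin filaments to adhesion sites, and SRF is the transcription factor itself. Both differed least in KGN. VCL was at 45.1, 49.1 and 47.1 FPKM untreated and at 40.5, 41.6 and 37.4 FPKM treated, or 84.6% of the untreated level (log2 fold change -0.24, SE 0.06). SRF was at 35.0, 37.8 and 35.1 FPKM untreated and at 29.3, 28.6 and 32.3 FPKM treated, or 83.7% (log2 fold change -0.25, SE 0.06).

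In COV434 VCL was at 29.04, 20.25 and 25.85 FPKM untreated and at 27.2, 21.7 and 17.8 FPKM treated (log2 fold change -0.17, SE 0.20, adjusted p = 0.933). SRF was at 19.99, 16.58 and 17.4 FPKM untreated and at 22.81, 21.15 and 19.98 FPKM treated (log2 fold change 0.23, SE 0.14, adjusted p = 0.787). For SRF the lowest treated library lay just under the highest untreated one, and the other treated libraries lay above all untreated ones. Same-numbered libraries deviate together in COV434, though least for number 3. Between them SRF, ACTB and TPM1 were each higher with treatment in 3 of 3 pairs, as were ACTA2 and TAGLN. ACTG1 and MYL9 were higher in 2 of 3 pairs, and CNN1, TPM2 and VCL in 1 of 3. In pair 3 ACTB was at 1570 and 1575 FPKM and TPM1 at 5.18 and 5.21 FPKM. How many of all genes were higher in 3 of 3 pairs was not counted. The adjusted p-values of SRF, ACTB and TPM1 in the blocked fit of limma were 0.389, 0.711 and 0.825.

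Of 8 genes tested in COV434, 0 passed an adjusted p under 0.05 with the line fitted alone, in limma or in voom on recovered reads. Fold changes were above 0 for 5 genes and below 0 for 3, and ACTA2 alone had an unadjusted p under 0.05 in limma (0.00247). Their median log2 fold change was 0.10, beside -0.02 over all genes. The lines share no libraries, and the difference between their responses was not tested, because it contains the contrast by which the genes were chosen.

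**Figure D3:**
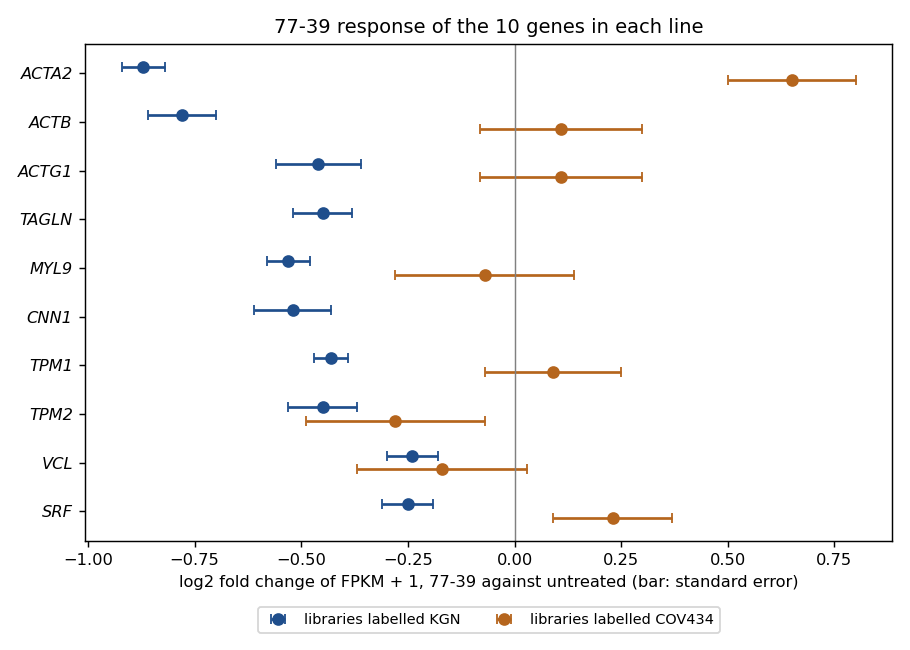
Log2 fold change of FPKM + 1 with 77-39 (horizontal axis) for each of the 10 genes, in the libraries labelled KGN and COV434. Points are limma estimates, bars are standard errors, and TAGLN and CNN1 have no COV434 point because their means there were under 1 FPKM. All 10 KGN points lie below 0, from -0.87 for ACTA2 to -0.24 for VCL, while the COV434 points run from -0.28 for TPM2 to 0.65 for ACTA2.

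CNN1 and TAGLN had means under 1 FPKM in COV434 and passed the filter of the comparison between the lines through KGN alone, so their difference is given without a test. Of the other 8 genes, averaged over both treatments, 7 were higher in KGN at an adjusted p under 0.05 in limma, and every KGN library lay above every COV434 library for these 7. Over all 13127 genes, 79.3% differed between the lines, 38.4% as higher and 40.9% as lower in KGN, and 28.8% had every KGN library above every COV434 library. The contractile genes stood farthest apart. The difference on the log2(FPKM + 1) scale was 3.61 for CNN1 and 3.14 for TAGLN, as a description, and 3.04 for MYL9 (SE 0.11, adjusted p = 1.96e-10). It was 2.80 for ACTA2 (SE 0.07, adjusted p = 3.11e-12) and 2.66 for TPM1 (SE 0.07, adjusted p = 1.42e-11).

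As ratios of mean FPKM, which the pseudocount does not shrink, KGN was above COV434 by 20-fold for TAGLN, 9.09-fold for ACTA2, 8.57-fold for MYL9 and 7.46-fold for TPM1. CNN1 had 3580 reads in the 6 KGN libraries against 2 in the 6 COV434 libraries, a ratio of 1630 in FPKM with a 95% counting interval of 456 to 13600. TPM2, VCL, ACTG1 and SRF differed less, by 1.02 (SE 0.12), 0.87 (SE 0.11), 0.86 (SE 0.10) and 0.72 (SE 0.07) on the log2 scale, with adjusted p-values from 1.04e-06 to 1.63e-05.

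ACTB was the gene whose average did not separate the lines, at a log2 difference of 0.02 (SE 0.09, adjusted p = 0.862). Its treated KGN libraries, at 1013 to 1146 FPKM, lay below all COV434 libraries, and its untreated ones, at 1808 to 1964 FPKM, lay above all of them. The difference in ACTB depended on the scaling. Scaled by the reads recovered on genes, it was 0.22 (adjusted p = 0.0499, from 0.0206 to 0.985 over all alternatives), but that scaling moved the median of all genes from -0.018 to 0.161, so that ACTB stood about as close to the median as before. The other 7 tested genes stayed higher in KGN under every alternative run.

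**Figure D4:**
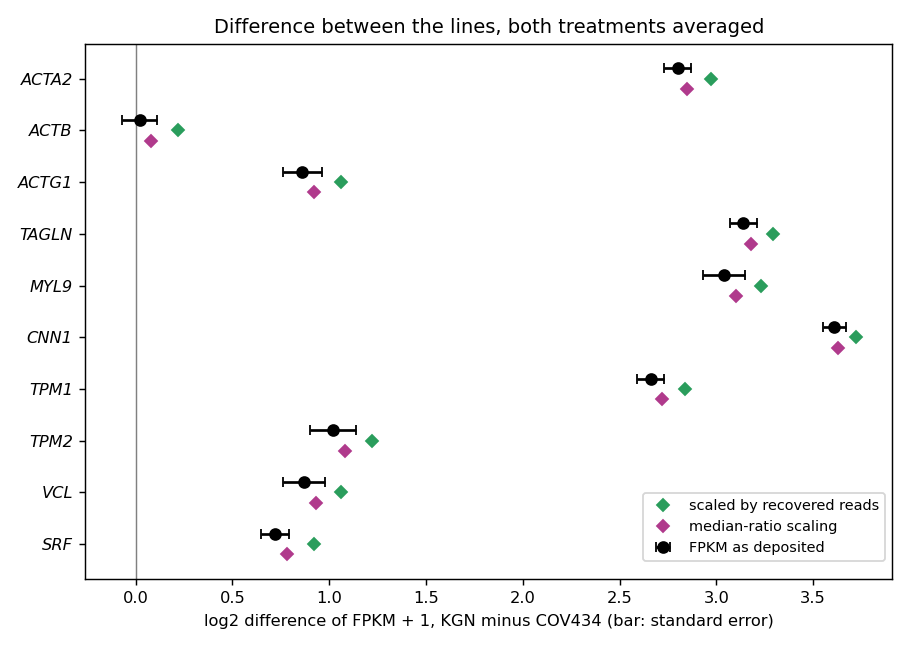
Difference between KGN and COV434, averaged over both treatments, on the log2(FPKM + 1) scale (horizontal axis) for each of the 10 genes. Black points with standard errors use FPKM as deposited, and diamonds use 2 other scalings. ACTB lies at 0.02 as deposited and at 0.22 when scaled by recovered reads, and CNN1 lies farthest to the right at 3.61.

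The order of FPKM within a library, which depends on the gene lengths, also differed. In reads, untreated KGN had 29613 for TPM1 and 30679 for TPM2, and 367359 for ACTB and 334374 for ACTG1. In untreated KGN the order ran from ACTG1 and ACTB, whose ranges overlapped, through MYL9, TPM2, VCL, TPM1, SRF and ACTA2 to TAGLN and CNN1. Among the neighbours in that order only ACTG1 with ACTB and SRF with ACTA2 overlapped. In treated KGN ACTA2 at 19.1 FPKM no longer overlapped SRF at 30.1 FPKM, while TPM1 at 30.5 FPKM did. In COV434 ACTB came first in both groups, and VCL, MYL9 and SRF lay close together at 25.05, 22.72 and 17.99 FPKM untreated, each range overlapping the next.

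Over the 12 libraries the genes whose log2(FPKM + 1) followed ACTA2 most closely, among 13127, were CNN2 (Pearson r = 0.997), HSPA2 (0.996), HOXC8 (0.991), KCNN1 (0.991) and S1PR5 (0.989). CNN2 encodes another calponin, HSPA2 a chaperone, HOXC8 a homeobox factor, KCNN1 a potassium channel and S1PR5 a receptor for sphingosine 1-phosphate. These values are dominated by the gap between the lines and are given as a description. CNN2 was at 109 ± 2.95 (SD, n = 3) and 77.26 ± 1.499 FPKM in untreated and treated KGN and at 32.1 ± 3.04 and 38.4 ± 1.11 FPKM in COV434. KCNN1 was at 19.1 ± 1.98 and 8.68 ± 0.110 FPKM in KGN and under 0.4 FPKM in every COV434 library.

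Among the 10 genes, r with ACTA2 over the 12 libraries was 0.893 to 0.986 for 8 genes and 0.261 for ACTB. Within the 6 KGN libraries ACTB had an r of 0.988 with ACTA2, since both separated treated from untreated libraries. Within the 6 COV434 libraries r with ACTA2 was 0.786 for TAGLN, 0.733 for SRF, 0.610 for ACTB and -0.457 for TPM2.

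To see how far the rest of the pathway moved, 8 lists of other cytoskeleton and SRF pathway genes were counted, 102 genes in all. In KGN 77 of them were tested, of which 31 fell and 12 rose at an adjusted p under 0.05 in limma. That was 55.8% called and 40.3% lower, beside 34.0% called and 16.4% lower among all 12671 genes. With the library number as a block 32 of the 77 were called, beside 3277 of all genes. In a single fit of 12 libraries each list had at most 2 calls in KGN, beside 1237 called among all genes. The lists were written with earlier results of these data known, and their median log2 fold change was -0.12 against 0.01 over all genes. Fitted alone without a block, COV434 had 0 of the 84 tested past the threshold in limma or with voom on the recovered reads. Of these 84, 4 had an unadjusted p under 0.05 in limma. With the block 2 passed in COV434, both immediate early targets of SRF, beside 87 of all genes. The single fit called 3 immediate early targets and 1 gene of filament turnover in COV434, beside 488 among all genes. Between the lines 34 of 86 were higher and 37 lower in KGN, or 82.6% called, beside 79.3% of all genes.

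**Figure D5:**
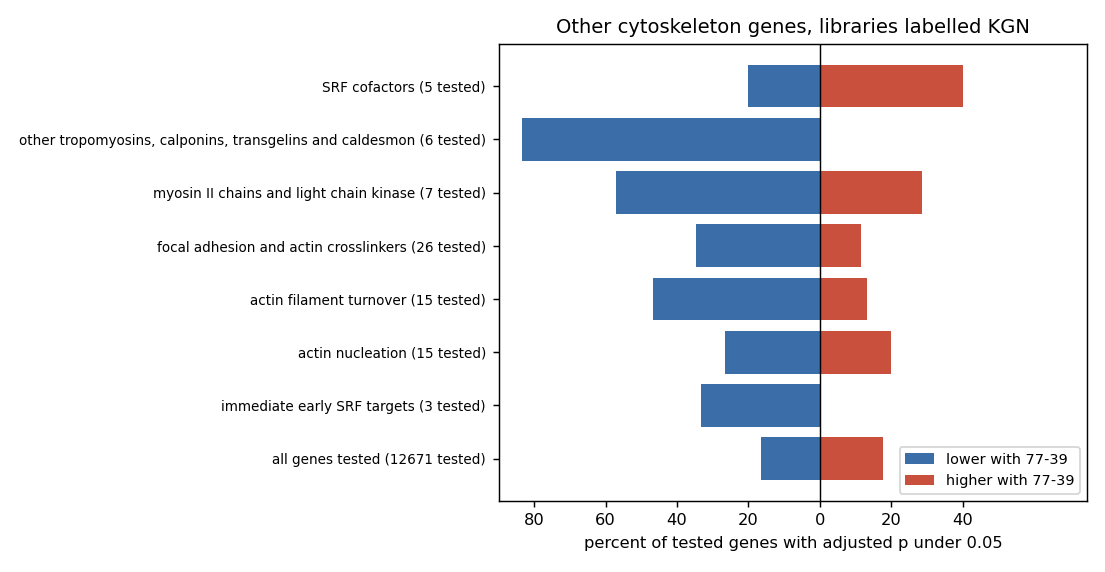
Percent of the tested genes in each list that were called lower (left of 0) or higher (right of 0) with 77-39 in the libraries labelled KGN, with all 12671 genes tested as the last bar. The list of other tropomyosins, calponins, transgelins and caldesmon reaches 83.3% lower, and all genes stand at 16.4% lower and 17.6% higher.

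Of the relatives of the contractile genes, 5 of 6 tested were called lower in KGN and none was called higher. The largest falls were in CNN2 (log2 fold change -0.49, SE 0.04, adjusted p = 0.000612) and SMTN, which encodes smoothelin (-0.24, SE 0.06, adjusted p = 0.0228). TAGLN2, tested and not called, differed by 0.12 (adjusted p = 0.166). CNN3, below the filter, was at 0.102 FPKM untreated and 0.269 FPKM treated. The count of 5 rests on small changes. It was 1 without the treated library 1 or 2, 2 without the untreated library 2 or 3, and 3 without the untreated library 1. With the library number as a block it was 2, and in a single fit of 12 libraries it was 1. Among myosin II chains 4 of 7 fell and 2 rose. MYL6B, an essential light chain, fell by 1.09 on the log2 scale (SE 0.06, adjusted p = 0.000176), from 67.0 ± 4.48 to 31.0 ± 1.54 FPKM (SD, n = 3), and MYH10, a nonmuscle heavy chain, fell by 0.35 (adjusted p = 0.00291). The regulatory light chains MYL12B and MYL12A rose by 0.30 (adjusted p = 0.00934) and 0.24 (adjusted p = 0.0197).

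At focal adhesions 9 of 26 genes fell and 3 rose. FLNA, which encodes the crosslinker filamin A, fell by 0.57 (adjusted p = 0.00235) and the adaptor PDLIM7 by 0.56 (adjusted p = 0.00136), while ITGB1, the integrin beta 1 subunit, rose by 0.26 (adjusted p = 0.00877) and LIMS1 by 0.19 (adjusted p = 0.011). Among regulators of filament turnover 7 of 15 fell and 2 rose. TMSB4X, whose product thymosin beta 4 binds actin monomers, went from 4250 ± 250 to 2779 ± 334 FPKM (SD, n = 3), a fall by 0.62 (adjusted p = 0.00762), and PFN1, the monomer-binding profilin, fell by 0.44 (adjusted p = 0.00355). CFL2, a cofilin that severs filaments, rose by 0.40 (adjusted p = 0.00211) and TWF1 by 0.32 (adjusted p = 0.00385).

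Of the genes for actin nucleation 4 of 15 fell and 3 rose, with DIAPH3, a formin, falling by 0.51 (adjusted p = 0.00163) and WASF2 by 0.28 (adjusted p = 0.011), and with WASL, an activator of the Arp2/3 complex, rising by 0.41 (adjusted p = 0.00185) and ACTR2, a subunit of that complex, by 0.24 (adjusted p = 0.0227). This count was 4 in place of 7 without the untreated library 2.

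Of 5 SRF cofactors tested in KGN, MRTFA, the actin-sensing coactivator, fell by 0.25 (adjusted p = 0.0289), while the ternary complex factors ELK3 and ELK4 rose by 0.43 (adjusted p = 0.00467) and 0.28 (adjusted p = 0.0477). These 3 calls dropped to 1 without the untreated library 2 or 3 and without the treated library 1 or 2. The block and the single fit of 12 libraries also left 1 call. MYOCD, the founding member of the family, was under 0.02 FPKM in every group mean. The immediate early targets of SRF are the other branch of its program, and of 3 tested JUNB fell by 0.46 (adjusted p = 0.00347).

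In COV434 no list gene was called with the line fitted alone and no block. There the smallest p of each list belonged to ELK3, CNN2, MYLK, FHL1, PFN2, WASL and EGR1. The last of these was the nearest to the threshold. EGR1, an immediate early factor, went from 4.78 ± 0.466 to 1.99 ± 0.237 FPKM (SD, n = 3; log2 fold change -0.95, SE 0.15, adjusted p = 0.0769).

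With the block on library number, which raised the called genes in COV434 from 5 to 87 (0.721%), FOS (adjusted p = 0.0475) and JUNB (adjusted p = 0.039) passed and EGR1 did not (adjusted p = 0.0538). FOS, named here after its value was seen, was at 8.59 FPKM untreated and 3.88 FPKM treated. The median of the 4 immediate early genes tested was -0.86, and all 4 fold changes were below 0. None of the 8 contractile and actin genes tested passed in the blocked fit, where the lowest adjusted p was that of ACTA2.

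Markers of other cell types that express contractile genes were measured beside these results. Of 11 smooth and striated muscle markers, 2 reached a mean of 1 FPKM in untreated KGN, SMTN and SYNPO2, and MYOD1, MYOG and MYH7 were at 0 in all 12 libraries. Their summed level was 5.38 to 5.94 FPKM in untreated and 5.41 to 5.74 FPKM in treated KGN, ranges that overlap, but its members went both ways, as SMTN fell by 0.24 (adjusted p = 0.0228) and SYNPO2 rose by 0.35 (adjusted p = 0.0261). It was 2.19 to 3.11 FPKM in untreated and 2.04 to 2.53 FPKM in treated COV434. Of 8 fibroblast and stromal markers, 3 reached a mean of 1 FPKM in KGN and 5 in COV434, with sums of 40.2 to 42.5 FPKM in untreated and 38.6 to 40.5 FPKM in treated KGN and of 82.1 to 204 and 109 to 193 FPKM in COV434. In KGN COL3A1, a fibrillar collagen, fell by 0.36 (adjusted p = 0.00312), from 25.7 to 19.8 FPKM, and LUM, which encodes lumican, rose by 0.43 (adjusted p = 0.00338), from 12.6 to 17.3 FPKM. Of 11 granulosa markers, 2 reached a mean of 1 FPKM in untreated and 1 in treated KGN, and 3 in each COV434 group, with sums of 5.43 to 6.27 FPKM in KGN and 21.4 to 26.3 FPKM in COV434. LUM made up most of the stromal sum in COV434, at means of 118 FPKM untreated and 128 FPKM treated, and the part of these cells in the results was not tested.

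Some reads of these genes could belong to copies or to genes on the other strand, since the strand setting of the counting is not given in the sources used here. Named processed copies of ACTB and ACTG1 took at most 0.112% of the reads of their parent genes in any group, and those of TPM1 and TPM2 at most 1.43%. POTEF, an actin-like gene named here after its values were seen, had 68, 97 and 111 reads in untreated and 147, 138 and 130 in treated KGN, the reverse order of ACTB, which had 117972 to 131291 reads untreated and 59581 to 72632 treated.

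ACTA2 overlaps FAS by 758 bases and STAMBPL1 by 40080 bases, both on the opposite strand. FAS differed by 0.05 (adjusted p = 0.592) and STAMBPL1 by -0.07 (adjusted p = 0.531) in KGN, where they had 2596 and 1081 reads untreated beside 5874 of ACTA2. In COV434 they had 911 and 864 reads untreated and 1085 and 599 treated, more than the 319 and 571 of ACTA2, and differed by 0.26 (adjusted p = 0.845) and -0.32 (adjusted p = 0.831). TPM1-AS, antisense to TPM1, had 350 reads in untreated and 174 in treated KGN and fell by 0.54 (adjusted p = 0.00688). ACTA2-AS1 had 75 and 42 reads. TPM1 itself had 29613 reads in untreated KGN. The share of reads from overlapping genes in those given to ACTA2 and TPM1 was not tested.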

How the data were processed

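RNA of KGN and COV434 cells was sequenced by the authors in 12 libraries, prepared with TRIzol and an Illumina kit per the labels. HISAT2 2.0.5 is named in the submitters' processing notes, which list only mouse builds, although the gene identifiers and coordinates are those of human GENCODE release 29 on GRCh38. The counting tool is not given in the sources used here. The authors deposited FPKM. Multiplied by gene length, all values of each library fell on whole reads within 0.05, and these reads gave the depth. The divisor used by the authors was 1.0731 to 1.1034 times the recovered reads in KGN and 0.9107 to 0.9782 times in COV434. Samples were grouped by title, as the untreated libraries carry the treatment text of the treated ones.

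Each line was fitted alone by limma 3.58.1 in R 4.3.3 (eBayes with a trend) on log2(FPKM + 1), leaving out genes whose mean was under 1 FPKM. The lines were compared in 1 fit of 12 libraries, as the mean of the KGN groups minus that of the COV434 groups. All tests were two-sided, and p-values were adjusted over every gene tested by the Benjamini-Hochberg method, with a threshold of 0.05. Same-numbered untreated and treated libraries deviated together in COV434 (correlations 0.4, 0.474 and 0.166) and not in KGN (-0.016, -0.018 and -0.019), so blocked values are given for COV434. Differently numbered COV434 libraries ran from -0.469 to 0.154. The highest of these, untreated library 3 with treated library 2, was close to the 0.166 of pair 3, so the pairing of library 3 is weakly shown. The pairing comes from the library numbers in the titles. The settings tried in turn were a smaller pseudocount (0.1), a lower filter (0.1 FPKM) or none, median-ratio scaling, scaling by recovered reads, voom on recovered reads, a single fit, the block, each library left out and, chosen after seeing the data, a pseudocount of 0.1 with a filter of 0.1 FPKM. Counting intervals cover counting error only.

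The genes, lists and marker lists were chosen with earlier results of these data known, and 1 gene list is not reported here. Named are the 10 genes, up to 2 largest rises and falls per list and line among called genes or else the gene with the smallest p, the 5 genes most correlated with ACTA2, pseudogenes and overlapping genes, and 3 genes that check the line labels. Figures were drawn with matplotlib 3.10.9.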

Additional observations from a re-analysis of the deposited data

Results flagged for a closer look

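ACTA2 and TAGLN had fold changes of opposite sign in the lines. In the libraries labelled KGN every treated library lay below every untreated one for both genes, and in those labelled COV434 every treated library lay above every untreated one. With a filter of 0.1 FPKM the COV434 log2 fold change was 0.65 for ACTA2 and 0.29 for TAGLN, against -0.87 and -0.45 in KGN. The pseudocount of 1 shrinks the COV434 values more, as the levels there are lower. By mean FPKM the treated level in COV434 was 182% of the untreated one for ACTA2 and 162% for TAGLN. In KGN it was 53.4% and 71.7%. With COV434 fitted alone in limma, neither difference passed the threshold. The adjusted p was 0.213 for ACTA2 at the filter of 1 FPKM and 0.759 for TAGLN at that of 0.1 FPKM. In the single fit of 12 libraries ACTA2 passed, at an adjusted p of 0.00375. That fit called 488 genes in COV434 in place of 5. The difference between the lines was not tested, because it contains the contrast by which the genes were chosen, and TAGLN rested on 23 to 64 reads in each COV434 library.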

How the results depend on the processing

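The KGN fold changes of the 10 genes kept their sign under all 15 alternatives, ranging from -0.91 to -0.85 for ACTA2 and from -0.81 to -0.73 for ACTB. Genes called in KGN numbered 4307 and 1237 in a single fit of 12 libraries, and 2751 to 4128 with 1 library left out, the lowest without the treated library 2.

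Genes called in COV434 numbered 5, and 3 with a pseudocount of 0.1 or a filter at 0.1 FPKM, 1 with no filter, 25 with voom, 488 in a single fit, 87 with the replicate block, and 1 to 7 with 1 library left out, with 1 without the untreated library 1 or 3 or the treated library 2 or 3 and 2 without the untreated library 2. Between the lines 10413 genes were called, and 17040 with no filter, where more genes are tested.

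In COV434 MYL9 changed sign without the untreated library 3 (0.01) and without the treated library 1 (0.14), its values ranging from -0.2 to 0.14 with 1 library left out, and TPM1 without the untreated library 1 (-0.04), its values ranging up to 0.15. Between the lines ACTB was 0.46 in untreated libraries alone and -0.43 in 77-39 libraries alone, and from -0.02, without the untreated COV434 library 1, to 0.07 with 1 library left out. The untreated and 77-39 values differ by the ACTB fold changes with treatment, which were -0.78 in KGN and 0.11 in COV434. The cause of the sign changes with 1 library left out was not tested. The block changed no call among the 10 genes in COV434 or between the lines. The depth limits TAGLN and CNN1 in COV434.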
